A study of Mus musculus with 12 samples.

Results

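CD4+ YFP(FOXP3)- T cells from mice with moderate disease were compared with the same sorted population from WT mice. The comparison took 8 of the 12 RNA-seq libraries of the study, 4 DKO-moderate and 4 WT. The 4 DKO-severe libraries entered the choice of genes tested, the scaling, and the shared estimate of spread. They also entered the principal component and the direct comparison given near the end. Every mouse was 14 weeks old and carried the *Foxp3-Cre* knock-in, in which a YFP-Cre fusion is made wherever *Foxp3* is transcribed. WT mice (Foxp3Cre WT) had intact *Tet2* and *Tet3*, and DKO-moderate mice had floxed alleles of both genes (Foxp3-Cre Tet2/3 fl/fl), so that deletion is directed to cells that express or once expressed *Foxp3*. The study notes that *Foxp3-Cre* can be leaky, so that some deletion in other cells is possible. The study called a DKO mouse moderate or severe by the total number of cells in spleen and lymph nodes, with DKO-moderate the smaller number. Cells of the spleen and of the cervical and inguinal lymph nodes were pooled within a mouse, YFP+ Treg cells were left out by the sort, and each library came from 1 mouse. The sorted fraction therefore held conventional CD4+ T cells, which do not express *Foxp3*, together with any ex-Treg cells that had stopped expressing *Foxp3*. In such bulk libraries, a gene that is higher per cell and a larger share of cells expressing it cannot be told apart.

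TET2 and TET3 are dioxygenases that oxidise the methyl group of 5-methylcytosine, a step toward loss of DNA methylation at CpG dinucleotides, and in Treg cells they keep the enhancers of *Foxp3* demethylated. Naive CD4+ T cells circulate through lymphoid tissue with the help of CCR7 and S1PR1 under transcription factors such as FOXO1, TCF1, and LEF1. T follicular helper (Tfh) cells, which carry CXCR5 and PD-1 and secrete IL-21, assist B cells in germinal centres and depend on BCL6 and MAF.

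Reads on genes numbered 33606949 to 38537454 in the WT libraries and 30138292 to 42133536 in the DKO-moderate libraries. Values below are normalised read counts (CPM, counts scaled by TMM to a common library size), listed for libraries 1 to 4 of a group in that order, and fold changes with their standard errors (SE) and adjusted p-values come from edgeR's quasi-likelihood test over 16035 genes. Of 8 T cell identity genes, including the CD3 chains and *Cd4*, the summed level was 4582 to 5170.1 CPM in WT and 4608 to 5282 CPM in DKO-moderate. *Foxp3* lay at 1.01, 3.1, 1.03, and 1.56 CPM in WT and at 0.983, 1.7, 0.845, and 0.291 CPM in DKO-moderate, low in all 8 libraries, with overlapping groups (adjusted p = 0.412). *Tet2* overlapped between the groups as well, at 43.3, 53.9, 48.6, and 62.2 CPM in WT and 53, 55.6, 57.8, and 34.8 CPM in DKO-moderate. *Tet3* was 167, 196, 210.4, and 208 CPM in WT and 168, 109, 185, and 90.3 CPM in DKO-moderate, where libraries 2 and 4 were low and libraries 1 and 3 were at or near WT levels (log2 fold change -0.50 ± 0.19 SE, adjusted p = 0.0902). Counts over a whole gene include exons outside the floxed part and cells that never expressed Cre, so these values do not test the deletion.

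WT 3 stood apart from the other WT libraries. The summed level of 14 B cell genes was 807 CPM in WT 3 and 13.1 to 26.7 CPM in the other WT libraries, against 43.1 to 61.6 CPM in DKO-moderate, with the B cell receptor component *Cd79a* at 49.8 CPM in WT 3 and near 1 CPM or below elsewhere in both groups. The 11 monocyte and macrophage genes summed to 215 CPM in WT 3, 12 to 28.1 CPM in the other WT libraries, and 31.7 to 92.2 CPM in DKO-moderate. DKO-moderate 2 and 4 also differed from DKO-moderate 1 and 3 in sex-linked transcripts: *Xist* was 0.0266, 1125, 4.32, and 458 CPM, and the summed level of 4 Y-linked genes was 556, 0, 461, and 0.0265 CPM. Among the WT libraries only WT 2 had *Xist* above 1 CPM (627 CPM), and it had no Y-linked reads. The labels give no sex, and within DKO-moderate the sex-linked split and the other differences between libraries 2 and 4 and libraries 1 and 3 cannot be told apart. Without WT 3, 2444 genes changed between DKO-moderate and WT, and with terms for neutrophil and B cell genes in the fit 2268 changed, 1716 higher and 552 lower, which included 76% of the 2734 genes described next.

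Of 16035 genes tested, 2734 changed in DKO-moderate against WT (17.1%), 1974 of them higher (12.3%) and 760 lower (4.74%). The rises were larger than the falls. Among the genes that rose the median log2 fold change was 1.63 and 803 exceeded 2, whereas among the genes that fell it was -0.58 and 17 fell by more than 2. The 4 DKO-moderate libraries lay entirely above or entirely below the 4 WT libraries for 2486 of the 2734 changed genes (90.9%), while the same held for 3975 of all 16035 genes (24.8%). The median log2 fold change over all tested genes was 0.0. The number of changed genes was 1616 without WT 1, 1707 without WT 2, and 2444 without WT 3, and the number that fell was 300 without WT 1, 326 without WT 2, 340 without DKO-moderate 2, and 456 without WT 4. When only the libraries with Y-linked reads were fitted, 2 DKO-moderate against 3 WT, 386 genes passed the test, 366 higher and 20 lower. All 2722 of the changed genes that could be tested there kept their sign in this subset. They were chosen on the same libraries, mostly without overlap between the groups, so this was nearly fixed in advance and is no separate support.

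**Figure D1:**
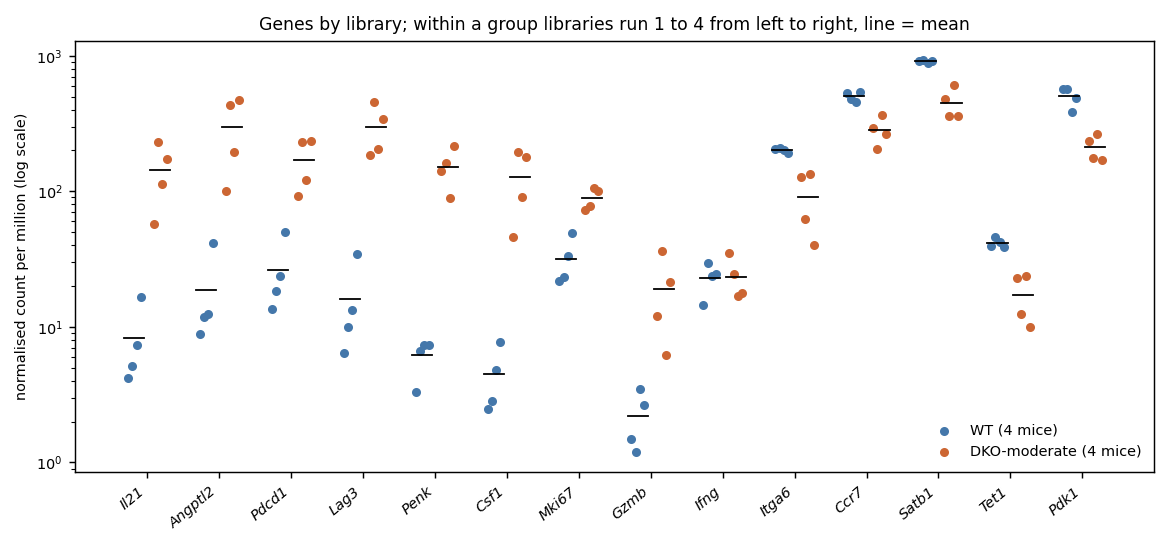
Normalised counts (CPM) on a logarithmic axis for 14 genes in each WT (blue) and DKO-moderate (orange) library, with libraries 1 to 4 from left to right in each group and a line at the mean. *Il21*, *Lag3*, *Penk*, and *Csf1* do not overlap between the groups, *Ifng* does, and for *Itga6* and *Tet1* DKO-moderate 2 and 4 lie below DKO-moderate 1 and 3.

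Promoters of genes that moved in each direction are shown with each CpG, the dinucleotide on which TET enzymes act, in capitals. They are the bases just before the annotated start, from RefSeq (GRCm38.p6), read 5′ to 3′ on the strand of the gene. *Epha7* (ephrin receptor A7; gene at chr4:28813131-28967499) had no reads in WT, *Il21* (gene at chr3:37222759-37232636) rose the most of the Tfh genes, and *Foxo1* (gene at chr3:52268336-52353221) fell. The windows are chr4:28812881-28813130, plus strand; chr3:37232637-37232886, minus strand; and chr3:52268087-52268335, plus strand.
Epha7: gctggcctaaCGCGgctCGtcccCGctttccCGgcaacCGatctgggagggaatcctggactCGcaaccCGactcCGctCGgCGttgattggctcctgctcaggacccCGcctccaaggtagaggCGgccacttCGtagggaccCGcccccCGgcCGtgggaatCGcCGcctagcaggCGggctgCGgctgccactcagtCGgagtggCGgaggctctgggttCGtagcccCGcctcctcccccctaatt
Il21: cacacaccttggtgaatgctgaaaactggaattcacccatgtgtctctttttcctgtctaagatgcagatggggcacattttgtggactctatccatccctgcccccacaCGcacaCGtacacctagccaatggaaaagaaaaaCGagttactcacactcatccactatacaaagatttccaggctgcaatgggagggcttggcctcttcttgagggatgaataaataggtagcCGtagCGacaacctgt
Foxo1: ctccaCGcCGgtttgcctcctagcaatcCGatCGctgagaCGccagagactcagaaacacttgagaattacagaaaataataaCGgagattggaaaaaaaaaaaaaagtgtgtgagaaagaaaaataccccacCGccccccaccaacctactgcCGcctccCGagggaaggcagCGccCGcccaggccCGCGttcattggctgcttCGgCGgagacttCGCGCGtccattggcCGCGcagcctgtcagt
The *Epha7* window held 25 CpG and that of *Il21* 5, and the *Foxo1* window, from a gene that fell, held 20, so the genes that rose stood on both sides of the gene that fell. Of the tested genes, 74.4% had a promoter in the table, and no comparison of CpG content between the genes that rose and the rest was made on this incomplete set. Methylation was not measured in these libraries.

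Tfh genes rose together in DKO-moderate cells. Of the Tfh factors and receptors, 20 of 26 tested members rose (76.9%), 0 fell, and 6 did not pass the test. Among all tested genes 12.3% rose and 4.74% fell. The median log2 fold change of the list was 2.03, against 0.0 for all genes. The study named 12 genes as Tfh-related from these libraries, and 9 of them rose, 1 fell, and 2 did not pass the test. All of them but *Foxo1* are members of this list. Their direction, and so the count for the list, is not independent of that choice. *Il21* (gene at chr3:37222759-37232636), the cytokine by which Tfh cells drive germinal centre B cells, was 4.17, 5.1, 7.33, and 16.6 CPM in WT and 57.5, 232, 114, and 174 CPM in DKO-moderate (log2 fold change 4.12 ± 0.50 SE, adjusted p = 0.000347). Every DKO-moderate library was above every WT library, DKO-moderate 1 was the lowest of its group, and WT 4 was the highest of the WT group. *Angptl2*, encoding a secreted angiopoietin-like protein, was likewise lowest in DKO-moderate 1, at 8.91, 11.8, 12.4, and 41.8 CPM in WT and 99.9, 431, 194, and 468 CPM in DKO-moderate (log2 fold change 3.99 ± 0.59 SE, adjusted p = 0.00106). *Pdcd1*, which encodes the inhibitory receptor PD-1, was 13.6, 18.4, 23.6, and 50.2 CPM in WT and 93, 232, 122, and 233 CPM in DKO-moderate (log2 fold change 2.68 ± 0.41 SE, adjusted p = 0.00126). DKO-moderate 2 and 4 stood at more than the level of DKO-moderate 1 for all 3 genes. The transcription factors *Bcl6*, at 22.2, 23.4, 28.5, and 33.5 CPM in WT and 34.2, 86.1, 49.2, and 90.6 CPM in DKO-moderate (log2 fold change 1.27 ± 0.30 SE, adjusted p = 0.0132), and *Maf*, at 35.6, 49.3, 56.6, and 80.7 CPM in WT and 178, 433, 222, and 357 CPM in DKO-moderate (log2 fold change 2.42 ± 0.31 SE, adjusted p = 0.0005), did not overlap between the groups, although *Bcl6* in DKO-moderate 1 was close to WT 4. Rises were also found for the chemokine receptor gene *Cxcr5* (log2 fold change 1.89, adjusted p = 0.00543), for the HMG-box factor gene *Tox2* (2.68, adjusted p = 0.00373), for *Cebpa* (2.53, adjusted p = 0.00506), for *Cd200* (2.33, adjusted p = 6.94e-05), for the costimulatory receptor gene *Icos* (2.02, adjusted p = 0.0005), for *Batf* (1.18, adjusted p = 0.00288), for *Klrb1c* (2.24, adjusted p = 0.00629), and for the cytokine gene *Il4* (2.05, adjusted p = 0.00274). *Ascl2*, a factor that induces *Cxcr5*, was 0.0287, 0.387, 0.517, and 2.68 CPM in WT and 1.78, 6.15, 7.48, and 2.25 CPM in DKO-moderate, with overlapping groups (log2 fold change 2.28 ± 0.85 SE, adjusted p = 0.0871), and *Nfkb1* was 282, 319, 315, and 335 and 382, 419, 423, and 369 CPM (log2 fold change 0.35 ± 0.16 SE, adjusted p = 0.145). *Ascl2* passed the test with DESeq2 (adjusted p = 0.0222).

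The naive program was lower, and unevenly so. Of 17 transcription factors of naive and stem-like T cells, 8 fell (47.1%), 1 rose (5.88%), and 8 did not pass the test (median log2 fold change -0.40). Among all tested genes 4.74% fell and 12.3% rose. *Satb1*, a chromatin organiser of T cells, was 917, 925, 889, and 909 CPM in WT and 479, 357, 603, and 362 CPM in DKO-moderate (log2 fold change -1.01 ± 0.19 SE, adjusted p = 0.00395). *Foxo1*, which maintains CCR7 and the IL-7 receptor in naive cells, was 526, 534, 433, and 548 CPM in WT and 309, 235, 364, and 259.6 CPM in DKO-moderate (log2 fold change -0.80 ± 0.14 SE, adjusted p = 0.00216). Both genes were low in all 4 DKO-moderate libraries, and neither overlapped between the groups. *Klf7* (log2 fold change -1.12, adjusted p = 0.00133), *Lef1* (-0.95, adjusted p = 0.0163), *Bach2* (-0.90, adjusted p = 0.00566), *Bcl11b* (-0.80, adjusted p = 0.0149), and *Foxp1* (-0.65, adjusted p = 0.0065) fell too, whereas *Myb*, which is expressed in cycling and stem-like lymphocytes, rose (0.79, adjusted p = 0.00506). *Tcf7*, encoding TCF1, was 1149, 1396, 1262, and 1641 CPM in WT and 1109.8, 1200.1, 1283, and 939.6 CPM in DKO-moderate, and the groups overlapped (log2 fold change -0.27 ± 0.12 SE, adjusted p = 0.149).

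Of 15 homing and trafficking genes of naive cells, 3 fell (20%, against 4.74% of all tested genes) and none rose (median log2 fold change -0.67). The chemokine receptor gene *Ccr7*, which guides cells into lymph nodes, was 534, 476, 458, and 540.4 CPM in WT and 292, 207, 363, and 263 CPM in DKO-moderate (log2 fold change -0.84 ± 0.14 SE, adjusted p = 0.00242), and *S1pr1*, which lets cells leave them, was 559.9, 591, 566, and 701 CPM in WT and 396, 259, 425, and 264 CPM in DKO-moderate (log2 fold change -0.85 ± 0.15 SE, adjusted p = 0.00352). *Itga6*, an integrin gene, was 206, 209.6, 202, and 191 CPM in WT and 128, 62.9, 134, and 39.8 CPM in DKO-moderate (log2 fold change -1.15 ± 0.30 SE, adjusted p = 0.0219), with an adjusted p of 0.0677 without DKO-moderate 2. The count of falls was 2 without DKO-moderate 2. Averaged over the list, log2 differences from the WT mean were -0.30, -1.26, -0.32, and -1.04 in DKO-moderate 1 to 4. Among 16 quiescence genes only *Btg1*, an antiproliferative gene, passed the test (log2 fold change -0.44 ± 0.13 SE, adjusted p = 0.0395), and its adjusted p was 0.116 without WT 2. *Klf2*, at 406, 342, 439.6, and 468 CPM in WT and 387, 208, 409, and 259 CPM in DKO-moderate, did not (adjusted p = 0.241).

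**Figure D2:**
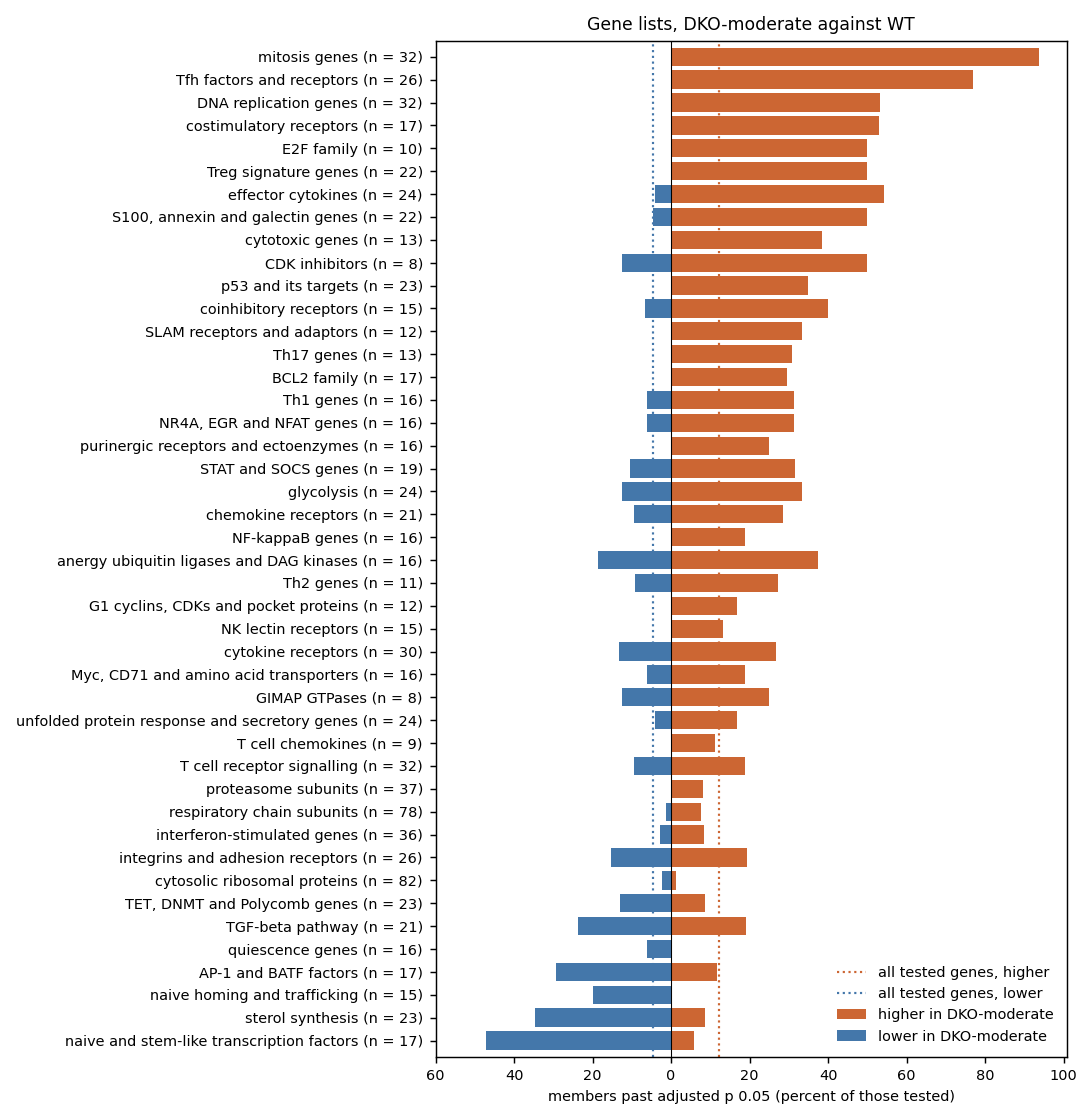
Share of the tested members of 44 gene lists that were higher (orange, to the right) or lower (blue, to the left) in DKO-moderate than in WT at an adjusted p under 0.05, in percent, with the number of tested members in parentheses and dotted lines at the shares over all tested genes (12.3% and 4.74%). Mitosis and Tfh genes reach furthest to the right, and transcription factors of naive cells and sterol synthesis genes furthest to the left.

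Checkpoint and costimulatory receptors were higher. Of 15 coinhibitory receptor genes, 6 rose (40%) and 1 fell (6.67%), with a median log2 fold change of 0.90. Of 17 costimulatory receptor and ligand genes 9 rose (52.9%) and none fell (median 1.41). The shares over all tested genes were 12.3% higher and 4.74% lower. *Lag3*, an inhibitory receptor for MHC class II (gene at chr6:124904361-124911705), was 6.44, 9.94, 13.2, and 34.6 CPM in WT and 186, 458, 205, and 344 CPM in DKO-moderate (log2 fold change 4.21 ± 0.51 SE, adjusted p = 0.000373). *Tigit* was 5.89, 7.68, 9.46, and 18.4 CPM in WT and 44.1, 143, 39.4, and 65.5 CPM in DKO-moderate (log2 fold change 2.82 ± 0.44 SE, adjusted p = 0.00139). For both, even the lowest DKO-moderate library exceeded the highest WT library, WT 4. *Ctla4*, which competes with CD28 for its ligands, was 23, 44.1, 33.8, and 32.2 CPM in WT and 123, 247, 118, and 112 CPM in DKO-moderate, where library 2 was high and the other 3 were close together (log2 fold change 2.17 ± 0.29 SE, adjusted p = 0.000581). *Btla* rose (0.90, adjusted p = 0.000809), and the fall in this list was that of *Cd200r1* (adjusted p = 0.0375), which was lost without DKO-moderate 2. *Tnfrsf4*, encoding OX40, was 15.4, 17.8, 17.2, and 29.1 CPM in WT and 66.2, 171, 72.8, and 173 CPM in DKO-moderate (log2 fold change 2.60 ± 0.35 SE, adjusted p = 0.00059), again highest in libraries 2 and 4.

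Genes known from Treg cells were higher although *Foxp3* itself was not. Of 22 Treg signature genes, 11 rose (50%) and none fell, against 12.3% and 4.74% of all tested genes (median log2 fold change 1.11). *Penk*, which encodes the opioid precursor proenkephalin (gene at chr4:4133531-4138819), was 3.3, 6.68, 7.33, and 7.38 CPM in WT and 140.0, 162, 88.8, and 215 CPM in DKO-moderate (log2 fold change 4.61 ± 0.32 SE, adjusted p = 6.94e-05). DKO-moderate 1 was the lowest of its group for *Il21*, *Angptl2*, and *Pdcd1*. For *Penk* it was DKO-moderate 3, as for the Tfh genes *Icos* and *Cd200*. *Il2ra*, the high-affinity IL-2 receptor chain, was 6.21, 14.1, 14.1, and 12.7 CPM in WT and 40.6, 27.3, 31.6, and 43.1 CPM in DKO-moderate (log2 fold change 1.60 ± 0.25 SE, adjusted p = 0.00131), and *Ikzf2*, encoding Helios, was 22.1, 51.4, 33.2, and 68.9 and 109.6, 267, 121, and 86.7 CPM (log2 fold change 1.73 ± 0.38 SE, adjusted p = 0.00903). *Folr4* (also called *Izumo1r*, encoding folate receptor 4) rose as well (1.75, adjusted p = 0.00242). Several of these genes are also induced in activated or anergic conventional T cells. Of 16 anergy-associated genes, 6 rose (37.5%) and 3 fell (18.8%), against 12.3% and 4.74% of all tested genes. The falls were 1 without DKO-moderate 2. The ubiquitin ligase gene *Rnf128* (GRAIL) was 1.9, 2.65, 2.24, and 5 CPM in WT and 36.3, 70.4, 36, and 56.9 CPM in DKO-moderate (log2 fold change 4.08 ± 0.32 SE, adjusted p = 6.94e-05), while the diacylglycerol kinase gene *Dgkd* fell (-0.81, adjusted p = 0.0119). *Nt5e* (CD73) was 54.6, 68, 70.3, and 80.9 CPM in WT and 270.2, 394, 282, and 265 CPM in DKO-moderate (log2 fold change 2.14 ± 0.18 SE, adjusted p = 7.14e-05), and *Cd38*, another ectoenzyme gene, rose by more (2.80, adjusted p = 0.00046).

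Effector cytokine genes rose selectively. Of 24 tested, 13 rose (54.2%) and 1 fell (4.17%), against 12.3% and 4.74% of all tested genes. Their median log2 fold change was 1.33. *Spp1*, which encodes osteopontin, was 0.431, 0.839, 1.93, and 3.96 CPM in WT and 99.7, 32.3, 68, and 13.5 CPM in DKO-moderate (log2 fold change 4.88 ± 0.74 SE, adjusted p = 0.0012). DKO-moderate 1 and 3 were above DKO-moderate 2 and 4, whereas *Il21* was higher in 2 and 4. *Csf1*, the macrophage colony-stimulating factor, was 2.47, 2.84, 4.8, and 7.68 CPM in WT and 45.7, 194, 90.4, and 179.9 CPM in DKO-moderate (log2 fold change 4.83 ± 0.52 SE, adjusted p = 0.000203), and *Lif*, a cytokine of the IL-6 family, was 1.41, 2.52, 1.67, and 2.02 and 14.1, 54.8, 13.2, and 25.8 CPM (log2 fold change 3.82 ± 0.46 SE, adjusted p = 0.000343). *Areg*, encoding the EGFR ligand amphiregulin, stayed below 6 CPM in DKO-moderate but was below 1 CPM in WT (mean 0.191 against 3.43 CPM, adjusted p = 0.00138). *Ifng* was 14.4, 29.5, 23.9, and 24.4 CPM in WT and 34.8, 24.4, 16.8, and 17.9 CPM in DKO-moderate, with overlapping groups (adjusted p = 0.976). *Il17a* and *Il17f* were below 1.1 CPM in all 8 libraries, at 0.611, 0.725, 0.397, and 0.874 CPM and 0.665, 0.441, 0.348, and 1.06 CPM in DKO-moderate, and neither passed the test (adjusted p = 0.714 and 0.631).

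Each of 4 other lineage lists held a larger share of genes that rose than the 12.3% over all tested genes. The 76.9% of the Tfh list was larger. That list holds genes the study named from these same libraries, so the shares are not on equal terms. *Il4* counts in the Tfh and Th2 lists, and *Batf* in the Tfh and Th17 lists. Of 16 Th1 genes 5 rose (31.2%) and 1 fell, of 11 Th2 genes 3 rose (27.3%) and 1 fell, of 13 Th17 genes 4 rose (30.8%) and none fell, and of 13 cytotoxic genes 5 rose (38.5%) and none fell. With 1 library left out, the rises went as low as 3 without DKO-moderate 4 for Th1, 2 without DKO-moderate 4 for Th17, and 2 without WT 1 for cytotoxic genes. *Ccr2*, an inflammatory chemokine receptor gene, led the Th1 list (log2 fold change 1.31 ± 0.36 SE, adjusted p = 0.0253), with an adjusted p of 0.07 without WT 2. In the Th2 list *Nfil3* (2.14, adjusted p = 0.00575), *Il4*, and *Ccr4* (1.62, adjusted p = 0.000264) rose. *Gzmb*, the granzyme B gene, was 1.49, 1.19, 3.45, and 2.65 CPM in WT and 12, 36.2, 6.21, and 21.3 CPM in DKO-moderate (log2 fold change 3.10 ± 0.65 SE, adjusted p = 0.00731), with an adjusted p of 0.073 by voom and 0.243 in the libraries with Y-linked reads. *Gzma* rose through DKO-moderate 2 above all, at 1.26, 1.84, 5.78, and 1.78 CPM in WT and 7.31, 25.5, 6.11, and 6.99 CPM in DKO-moderate (log2 fold change 2.10 ± 0.62 SE, adjusted p = 0.0367), with an adjusted p of 0.135 without DKO-moderate 2. *Nkg7* rose (1.64, adjusted p = 0.0186), with an adjusted p of 0.0604 without WT 1. The 8 NK cell genes summed to 27.5 to 52.7 CPM in WT and 83.8 to 216 CPM in DKO-moderate, and the list holds *Klrb1c* and *Eomes*, which make up most of this sum in both groups. The part of NK cells in these rises was not tested.

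Cytokine receptors and their signalling genes moved in both directions. Of 30 cytokine receptor genes 8 rose (26.7%) and 4 fell (13.3%), with a median log2 fold change of 0.08. The shares over all tested genes were 12.3% and 4.74%. The IL-1 receptor genes *Il1r2*, a decoy, at 0.69, 1.45, 0.834, and 1.78 CPM in WT and 8.69, 24.4, 12.5, and 16.7 CPM in DKO-moderate (log2 fold change 3.71 ± 0.51 SE, adjusted p = 0.000712), and *Il1r1*, the signalling form, at 2.07, 1.94, 2.13, and 1.37 and 5.37, 29.6, 16.4, and 8.48 CPM (log2 fold change 2.99 ± 0.46 SE, adjusted p = 0.00126), led the rises. *Il2rb*, shared by the IL-2 and IL-15 receptors, was 131, 191, 257, and 298 CPM in WT and 606, 628, 562, and 569 CPM in DKO-moderate, where the 4 libraries lay close together (log2 fold change 1.43 ± 0.19 SE, adjusted p = 0.00069). *Il10ra* also rose (1.14, adjusted p = 0.00681). *Ifngr2* (-1.01, adjusted p = 0.00311) and *Il4ra* (-0.93, adjusted p = 0.00959), which encode chains for interferon gamma and for IL-4 and IL-13, fell. In the TGF-beta pathway 4 of 21 genes rose (19%) and 5 fell (23.8%). The rises there were 2 without WT 1 and the falls 2 without DKO-moderate 2. The inhibitor gene *Smad7* was 266, 334, 248, and 219.5 CPM in WT and 162, 96.5, 152, and 76 CPM in DKO-moderate (log2 fold change -1.13 ± 0.22 SE, adjusted p = 0.0046), and the integrin gene *Itgb8*, whose product releases active TGF-beta, rose (2.91, adjusted p = 0.00186).

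Of 32 T cell receptor signalling genes, 6 were higher (18.8%) and 3 lower (9.38%), against 12.3% and 4.74% of all tested genes. The rises were 2 without WT 1 and the falls 0 without DKO-moderate 2. The proximal kinase gene *Zap70* rose (log2 fold change 0.76 ± 0.12 SE, adjusted p = 0.00178), whereas the adaptor gene *Grap2* fell (log2 fold change -1.06 ± 0.29 SE, adjusted p = 0.0282), with an adjusted p of 0.0804 without DKO-moderate 2. In the NR4A, EGR, and NFAT list 5 of 16 genes rose (31.2%) and 1 fell (6.25%). Among the rises were *Egr2* (1.58, adjusted p = 0.00139), *Nfatc1* (0.89, adjusted p = 0.00134), and *Tox* (0.94, adjusted p = 0.00453), which are induced by antigen receptor signals. Of 17 AP-1 and BATF factors, 5 fell (29.4%), including *Bach1* (-0.97, adjusted p = 0.00387), and 2 rose (11.8%). The falls were 3 without DKO-moderate 3. Adhesion genes included *Alcam*, a ligand of CD6, at 2.24, 3.45, 6.47, and 7.11 CPM in WT and 67.3, 125, 60.2, and 113 CPM in DKO-moderate (log2 fold change 4.24 ± 0.37 SE, adjusted p = 7.74e-05). In the S100, annexin, and galectin list 11 of 22 rose (50%), as with *S100a11* (1.91, adjusted p = 0.000204) and *Anxa2* (1.80, adjusted p = 0.00133), and the count was 7 without WT 1.

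Mitosis genes rose nearly as a block, and the other cell cycle lists did so in part or hardly at all. Of 32 mitosis genes, 30 rose (93.8%) and none fell (median log2 fold change 1.57). Of 32 DNA replication genes 17 rose (53.1%) and none fell (median 0.64), against 12.3% higher and 4.74% lower among all tested genes. Of 10 E2F family genes 5 rose (50%), and of 8 CDK inhibitor genes 4 rose (50%) and 1 fell (12.5%). Of 12 genes for G1 cyclins, CDKs, and pocket proteins 2 rose (16.7%), near the share over all genes, and none fell (median 0.09). *Mki67*, the proliferation marker Ki-67, was 21.6, 23.3, 33.4, and 49.1 CPM in WT and 73.1, 78.4, 105, and 99.6 CPM in DKO-moderate (log2 fold change 1.48 ± 0.29 SE, adjusted p = 0.00537). *Cdk1*, the kinase that drives entry into mitosis, was 3.13, 2.55, 3.22, and 5.82 CPM in WT and 7.87, 10.7, 10.7, and 26.4 CPM in DKO-moderate (log2 fold change 1.91 ± 0.42 SE, adjusted p = 0.00915), with library 4 high and the other 3 close together. The spindle checkpoint gene *Bub1* was 1.87, 2, 2.3, and 3.14 CPM in WT and 7.97, 8.54, 9.44, and 12.5 CPM in DKO-moderate (log2 fold change 2.04 ± 0.31 SE, adjusted p = 0.00126). The groups did not overlap for these 3 genes. Among replication genes, *Mcm10* (2.04, adjusted p = 0.00308) and the thymidine kinase gene *Tk1* (1.75, adjusted p = 0.00526) rose. Without WT 1, 26 of the mitosis genes and 10 of the replication genes passed the test. In the libraries with Y-linked reads alone, which are fewer, 0 mitosis genes and 2 replication genes passed. The study named 4 cell cycle genes from these libraries, and all 4 rose: the repressive E2F genes *E2f7* (log2 fold change 1.47 ± 0.30 SE, adjusted p = 0.00638) and *E2f8* (log2 fold change 1.62 ± 0.37 SE, adjusted p = 0.0114) and the inhibitor genes *Cdkn2a* (log2 fold change 2.12 ± 0.33 SE, adjusted p = 0.00134) and *Cdkn1a* (log2 fold change 1.80 ± 0.46 SE, adjusted p = 0.0189). *Cdkn1a* was 0.661, 1.16, 3.1, and 0.847 CPM in WT and 3.24, 6.56, 5.24, and 5.09 CPM in DKO-moderate, with WT 3 next to DKO-moderate 1, and its largest adjusted p with 1 library left out was 0.0599 without WT 2. *Cdkn2a* was 0.259, 0.194, 0.431, and 0.383 CPM in WT and 1.57, 1.42, 0.969, and 1.62 CPM in DKO-moderate.

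Promoters of the cycle genes held the letters of known cell cycle elements. Of the 26 mitosis genes with a promoter in the RefSeq table, 9 carried the CHR element (TTTGAA, either strand) in the 250 bases before the start (34.6%), against 11.2% of the promoters found for all tested genes. All 9 rose. The E2F core (TTTNNCGC, either strand) stood before 8 of the 25 replication genes found (32%), against 6.82% of the promoters of all tested genes. Of these 8, 5 rose, and of all 32 replication genes 17 rose (53.1%). Only 78.1% of the replication genes had a promoter, so that share covers the matched genes alone. *Cdk1* (chr10:69352939-69353162, minus strand) and *Mcm6*, a subunit of the replicative helicase (chr1:128359706-128359955, minus strand), are shown from GRCm38.p6 with the CHR letters in capitals in *Cdk1* and those of the E2F core, on either strand, in *Mcm6*. The *Cdk1* window also holds an E2F core, left in lower case.
Cdk1: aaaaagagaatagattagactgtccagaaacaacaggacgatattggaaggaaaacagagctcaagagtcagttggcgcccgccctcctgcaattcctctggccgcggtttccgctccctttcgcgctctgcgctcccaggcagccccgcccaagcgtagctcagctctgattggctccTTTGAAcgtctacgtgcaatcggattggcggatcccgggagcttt
Mcm6: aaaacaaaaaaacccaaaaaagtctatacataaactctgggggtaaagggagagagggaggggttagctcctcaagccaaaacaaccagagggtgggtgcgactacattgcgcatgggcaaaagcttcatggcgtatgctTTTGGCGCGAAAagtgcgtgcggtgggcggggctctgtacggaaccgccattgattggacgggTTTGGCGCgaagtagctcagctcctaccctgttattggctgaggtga
*Mcm6* was 113, 109, 128, and 130.1 CPM in WT and 205, 269, 212, and 299.7 CPM in DKO-moderate (log2 fold change 1.04 ± 0.14 SE, adjusted p = 0.000772). A match describes the letters in the window and says nothing of whether a factor binds there. In the *Cdk1* window the CHR letters share no position with the E2F core, and the *Mcm6* window holds no CHR letters.

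Stress and survival genes rose in part. Of 23 p53 targets and regulators 8 rose (34.8%) and none fell, and of 17 BCL2 family genes 5 rose (29.4%) and none fell. Over all tested genes 12.3% rose and 4.74% fell. *Pmaip1*, encoding the proapoptotic protein NOXA, was 2.7, 4.36, 8.48, and 3.25 CPM in WT and 25, 28.6, 17.9, and 18.4 CPM in DKO-moderate (log2 fold change 2.26 ± 0.38 SE, adjusted p = 0.0022), and the prosurvival gene *Bcl2a1d* was 8.76, 9.29, 9.89, and 13.4 and 30.8, 48.8, 27.8, and 72.2 CPM (log2 fold change 2.12 ± 0.28 SE, adjusted p = 0.000581). *Bcl2a1d* has near-identical paralogs, so reads of this family may be split among them. *Perp*, a p53 target, was under 0.4 CPM in WT and 2.31, 2.77, 2.19, and 1.83 CPM in DKO-moderate (adjusted p = 0.000343).

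In metabolism, more glycolysis genes rose than fell and more sterol genes fell than rose. Of 24 glycolysis genes 8 rose (33.3%) and 3 fell (12.5%), against 12.3% and 4.74% of all tested genes. Of 23 sterol synthesis genes 8 fell (34.8%) and 2 rose (8.7%), with a median log2 fold change of -0.31. The sterol falls were 5 without DKO-moderate 2. *Tpi1*, a glycolytic enzyme gene, was 53.7, 50.8, 50.2, and 55.1 CPM in WT and 84.2, 191, 109.8, and 202 CPM in DKO-moderate (log2 fold change 1.48 ± 0.28 SE, adjusted p = 0.00431), and *Hk2*, encoding hexokinase 2, was 1.87, 1.77, 3.77, and 2.13 and 6.17, 9.02, 6.91, and 11.9 CPM (log2 fold change 1.83 ± 0.29 SE, adjusted p = 0.00139). *Pdk1*, a pyruvate dehydrogenase kinase gene, was 571, 568, 384, and 489.8 CPM in WT and 235, 176, 266, and 171 CPM in DKO-moderate (log2 fold change -1.25 ± 0.19 SE, adjusted p = 0.00123). *Srebf2*, the main activator of sterol genes, fell (-0.58, adjusted p = 0.00944). Of 78 respiratory chain genes 6 rose and 1 fell, of 37 proteasome genes 3 rose, and of 82 cytosolic ribosomal protein genes 1 rose and 2 fell. These shares were below those over all genes, but the respiratory chain and proteasome counts depended on the fit. The respiratory chain rises were 2 without WT 1, 13 without DKO-moderate 3, and 14 both by DESeq2 and by library size alone. The proteasome rises were 0 without DKO-moderate 2 and 6 by library size alone. The ribosomal count rested on the test and on single libraries, with 29 lower by DESeq2, 38 by voom, and 0 to 32 as libraries were left out. Few ribosomal genes passed, but 80 of the 82 had a negative log2 fold change (median -0.26). Among 36 interferon-stimulated genes, 3 rose (2 without WT 1, 6 without WT 2, and 6 by DESeq2), *Mx1* (log2 fold change 1.34 ± 0.27 SE, adjusted p = 0.00587), *Ifi27l2a* (log2 fold change 1.19 ± 0.24 SE, adjusted p = 0.00579), and *Gbp3* (adjusted p = 0.0185), and *Ifit2* fell (log2 fold change -0.76 ± 0.19 SE, adjusted p = 0.0173), with an adjusted p of 0.0507 without DKO-moderate 2.

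Of 23 TET, DNMT, and Polycomb genes, which act on DNA methylation or histone methylation, 2 rose (8.7%) and 3 fell (13%), against 12.3% and 4.74% of all tested genes. The falls were 1 without DKO-moderate 2. *Tet1*, which is not targeted in these mice (gene at chr10:62804570-62908996), was 39.7, 46, 42.3, and 38.5 CPM in WT and 23, 12.5, 23.7, and 9.99 CPM in DKO-moderate (log2 fold change -1.27 ± 0.34 SE, adjusted p = 0.023). No library overlapped, DKO-moderate 2 and 4 were the lowest, and the adjusted p was 0.0714 without DKO-moderate 2. *Uhrf1*, which brings maintenance methylation to replicating DNA, was 14.3, 14.2, 12.7, and 16.8 CPM in WT and 33.7, 36.9, 33.8, and 55.5 CPM in DKO-moderate (log2 fold change 1.46 ± 0.23 SE, adjusted p = 0.00135), and the Polycomb methyltransferase gene *Ezh2* rose (0.61, adjusted p = 0.00264). Both are also high in dividing cells.

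The largest fold changes belonged to genes that WT cells hardly transcribe. Among genes past the test without overlap and averaging 5 CPM or more in whichever group was higher, the 15 largest rises were *Meis2*, *Tmprss11g*, *Epha7*, *Cntn5*, *Cdh2*, *Col5a2*, *Sntg2*, *Leprel1*, *Prss34*, *Ntng1*, *Dpysl3*, *Scg2*, *Sdc2*, *Twist2*, and *Sphkap*, several of which are known from neurons, connective tissue, or development. *Meis2*, a homeobox gene, had no reads in WT and was 1.7, 38.5, 4.15, and 58.6 CPM in DKO-moderate, at least 1177-fold higher against the limit of 3 counts over the pooled WT libraries (adjusted p = 0.00413). *Epha7* had no reads in WT either and was 0.877, 14.5, 3.6, and 8.05 CPM in DKO-moderate, at least 309-fold higher (adjusted p = 0.00134). In both, DKO-moderate 2 and 4 carried most of the reads. *Tmprss11g* was 0.159, 46.3, 0.373, and 0.874 CPM in DKO-moderate after no reads in WT, with nearly all of its reads in library 2. Its call was lost without each of the WT libraries (adjusted p = 0.067 without WT 1) and with voom (adjusted p = 0.0979). *Col5a2*, a fibrillar collagen gene, was 0.0287, 0, 0, and 0.109 CPM in WT and 6.96, 17.9, 20.1, and 34.3 CPM in DKO-moderate (adjusted p = 0.00016), and *Sntg2*, a syntrophin gene, was 0, 0, 0.144, and 0.0547 and 7.15, 44.9, 15.2, and 39.7 CPM (adjusted p = 9.78e-05). *Twist2*, a transcription factor gene of mesenchymal cells, was at most 0.082 CPM in WT and 1.06, 9.61, 2.16, and 11.8 CPM in DKO-moderate (adjusted p = 0.00126). These genes passed the filter on reads through the DKO libraries, so their number is a description: 363 genes with a WT mean under 0.1 CPM rose, 115 of them reached a mean of 1 CPM in DKO-moderate, and 22 reached 5 CPM. Summed over the 115 genes, the level was 1.93, 2.87, 5.32, and 5.55 CPM in WT 1 to 4 and 116, 819, 277, and 566 CPM in DKO-moderate 1 to 4. The highest library was DKO-moderate 2 for 75 of the 115 and the lowest was DKO-moderate 1 for 84. The 7 stromal genes summed to 168 to 197 CPM in DKO-moderate and 206 to 266 CPM in WT, nearly all of it *Pecam1*, which fell. Of the 5 that were tested, the matrix gene *Dcn* rose from 0.0273 CPM or less in WT to 1.22, 8.01, 0.373, and 1.96 CPM (log2 fold change 8.06), and *Pdgfrb*, a receptor gene of pericytes and fibroblasts, from 0.0862 CPM or less to 0.239, 1.26, 0.646, and 0.397 CPM (log2 fold change 4.29). The collagen genes *Col1a1*, *Col1a2*, and *Col3a1* stayed below 0.5 CPM in all 8 libraries. The neutrophil and basophil transcripts *Mpo*, at 0.133, 2.58, 0.298, and 6.28 CPM in DKO-moderate, and *Prss34*, at 0.266, 12.3, 0.174, and 15.8 CPM, were highest in the same libraries 2 and 4, and the part of other cells in these rises was not tested.

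**Figure D3:**
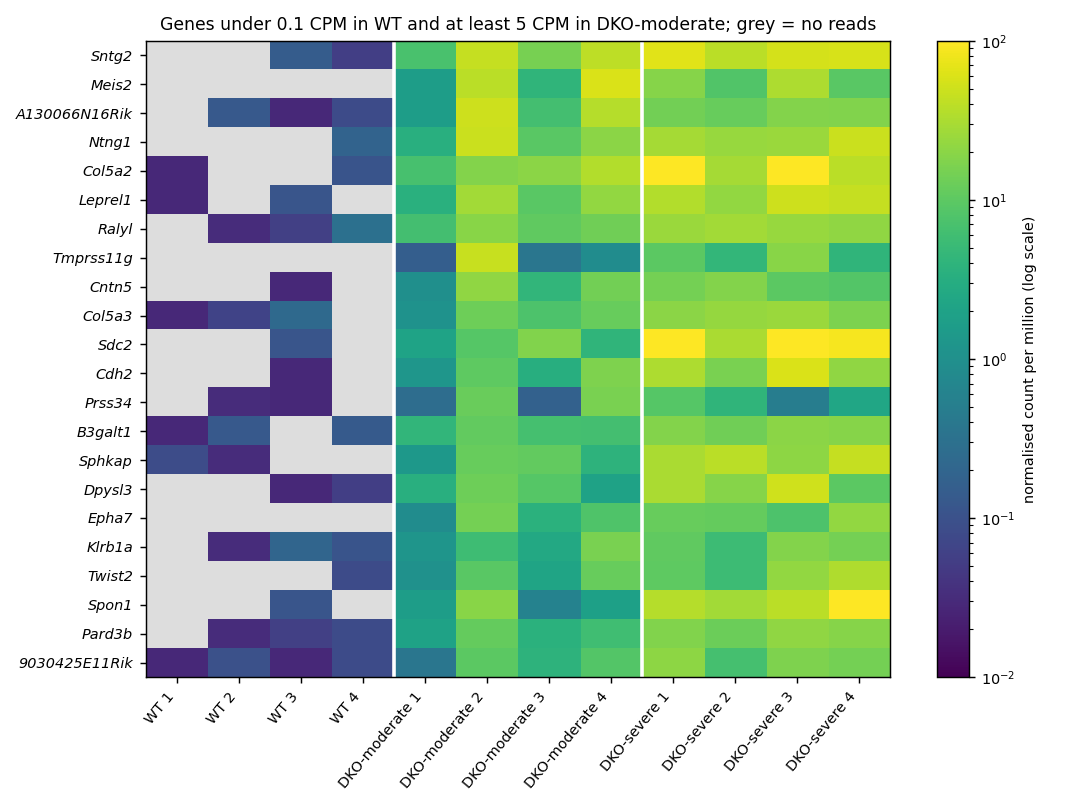
Normalised counts (CPM), on a logarithmic color scale, of the 22 genes with a mean under 0.1 CPM in WT and of at least 5 CPM in DKO-moderate, in all 12 libraries, with gray where a library had no reads. DKO-moderate 1 is the lowest of its group for 19 of the 22 genes, and DKO-moderate 2 the highest for 15.

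Families formed from symbols after these values had been seen gave the same picture in part. Of 44 ephrin, ephrin receptor, semaphorin, and plexin genes tested, 15 rose (34.1%) and 2 fell (4.55%). Of 82 cation channel subunit genes 25 rose (30.5%) and 3 fell (3.66%), and of 28 collagen genes 7 rose (25%) and none fell. Over all tested genes 12.3% rose and 4.74% fell. The families had 53, 132, and 43 members in all. Any member silent in WT passed the filter on reads only through the DKO libraries and could hardly be called lower. These counts are therefore a description. The channel rises were 13 without WT 1. *Epha3* was under 0.6 CPM in WT and 9.3, 8.23, 5.89, and 9.3 CPM in DKO-moderate, even across the 4 libraries (log2 fold change 4.50 ± 0.41 SE, adjusted p = 9.78e-05), and *Sema4c* was 0.575, 0.548, 0.46, and 1.48 and 9.2, 15, 6.06, and 8.85 CPM (log2 fold change 3.66 ± 0.47 SE, adjusted p = 0.000516). *Epha4* was 0.133, 8.98, 0.323, and 0.238 CPM in DKO-moderate, of which library 2 held nearly all, and its adjusted p of 0.0359 went to 0.206 without DKO-moderate 2.

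The 15 largest falls were smaller and came from genes with modest levels in WT: *Mid1*, *Adh1*, *Sik1*, *Amz1*, *Cd8b1*, *Cd55*, *Gabrr2*, *Dapk1*, *Irs2*, *St8sia6*, *Rcn3*, *Myo10*, *Tbc1d16*, *Sorcs2*, and *Arhgap29*, with log2 fold changes from -2.30 to -1.46. *Mid1*, a ubiquitin ligase gene near the pseudoautosomal boundary of the X chromosome, was 9.02, 10.4, 5.55, and 11 CPM in WT and 3.03, 0.599, 2.93, and 0.742 CPM in DKO-moderate, with DKO-moderate 2 and 4 lowest (log2 fold change -2.30 ± 0.52 SE, adjusted p = 0.0104). *Sik1*, encoding a salt-inducible kinase, was 65, 135, 67.2, and 38.8 CPM in WT and 29.7, 29.8, 22, and 10.2 CPM in DKO-moderate (log2 fold change -1.74 ± 0.37 SE, adjusted p = 0.00834). *Amz1*, a metallopeptidase gene, was 5.69, 6.13, 6.96, and 5.96 CPM in WT and 1.78, 1.86, 1.81, and 1.96 CPM in DKO-moderate, the most even fall of the 15 (log2 fold change -1.74 ± 0.22 SE, adjusted p = 0.0005). *Cd55*, which encodes the complement regulator DAF, was 103, 114, 102, and 80.3 CPM in WT and 46.6, 17.9, 47.6, and 18.4 CPM in DKO-moderate (log2 fold change -1.61 ± 0.43 SE, adjusted p = 0.0243), with an adjusted p of 0.0712 without DKO-moderate 2. *Cd8b1*, a CD8 chain, was 18.8, 16.6, 20.3, and 17.8 CPM in WT and 7.71, 3.91, 8.42, and 3.05 CPM in DKO-moderate (log2 fold change -1.67 ± 0.46 SE, adjusted p = 0.0271), with an adjusted p of 0.0814 without DKO-moderate 2. The calls of *Adh1*, *Gabrr2*, *St8sia6*, *Sorcs2*, and *Arhgap29* were likewise lost when single WT or DKO-moderate libraries were left out, with adjusted p of up to 0.0768, 0.0896, 0.0796, 0.0707, and 0.0766.

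The 4 DKO-moderate libraries formed an uneven group. Over 9719 genes that averaged 5 CPM or more, *Xist* and Y-linked genes left out, the root mean square log2 difference between DKO-moderate 1 and 3 was 0.243, smaller than between any pair of WT libraries (0.262 to 0.493), while the other 5 DKO-moderate pairs differed by 0.439 to 0.556. DKO-moderate 1 and 3 were 0.496 to 0.752 from the WT libraries, and DKO-moderate 2 and 4 were 0.778 to 0.982 from them. The median SD of log2 CPM per gene was 0.212 in DKO-moderate and 0.127 in WT, and it was larger in DKO-moderate for 7169 of the 9719 genes (73.8%). Measured over all 16035 genes as the distance of each library to the mean of the rest of its group, however, the spread was 0.643 ± 0.058 in DKO-moderate and 0.605 ± 0.158 in WT (SD, n = 4), and the difference was not significant (ratio 1.06, exact permutation test, two-sided, p = 0.743, with 0.0286 the smallest p the design allows). WT 3, at 0.837, was the furthest WT library, and without it the ratio was 1.27. Its exact permutation p of 0.0571 is the smallest that the remaining libraries allow. That floor lies above the threshold for significance, so the test without WT 3 could not decide whether the spread differed. The distances within a group also share libraries and are not independent values.

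**Figure D4:**
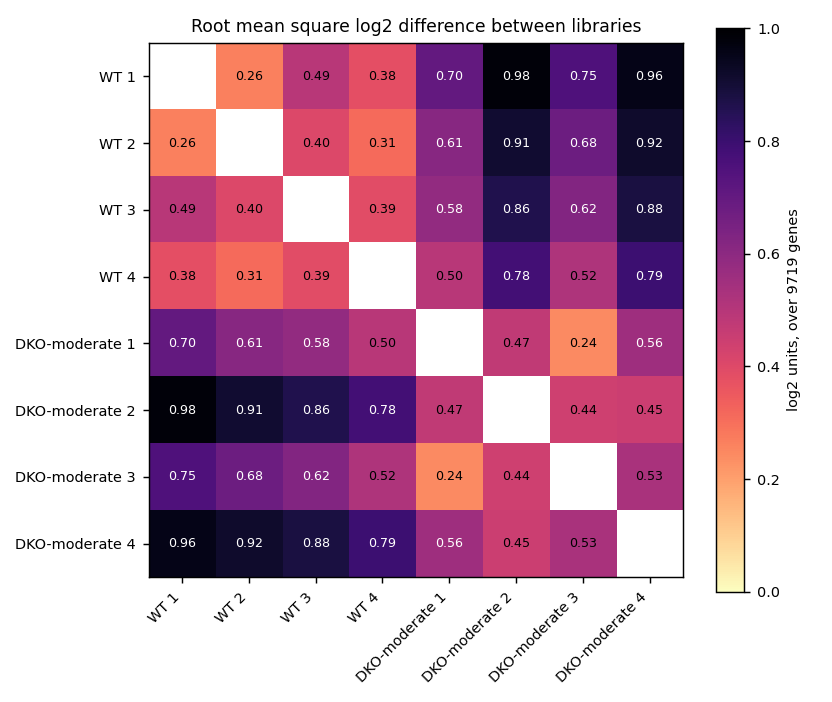
Root mean square log2 difference between each pair of the 8 libraries over 9719 genes, darker for a larger difference. DKO-moderate 1 and 3 are the closest pair, and DKO-moderate 2 and 4 are further from every WT library than DKO-moderate 1 and 3 are.

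Over the 1974 genes that rose, the median log2 difference from the WT mean was 1.09, 1.75, 1.23, and 1.67 in DKO-moderate 1 to 4, and over the 760 that fell it was -0.46, -0.72, -0.41, and -0.78. The comparison itself chose these genes, so the values describe how unequally the libraries contributed. The split differed between gene groups. Tfh genes averaged 1.34, 2.21, 1.66, and 2.13 log2 units above the WT mean in DKO-moderate 1 to 4, with libraries 2 and 4 ahead. Mitosis genes averaged 1.10, 1.28, 1.52, and 2.06, and DNA replication genes 0.53, 0.63, 0.63, and 1.26, both furthest from WT in library 4. Effector cytokines, at 1.56, 1.94, 1.44, and 1.80, and Treg signature genes, at 0.93, 1.22, 0.84, and 1.04, were more even. Ribosomal protein genes averaged -0.17, -0.59, -0.23, and -0.05, where library 2 was apart, and interferon-stimulated genes 0.28, -0.27, 0.14, and 0.44, where library 2 was the only library below WT. Respiratory chain genes, at 0.09, 0.08, 0.01, and 0.57, were raised in library 4 alone. Across the 44 lists, DKO-moderate 4 was the furthest from WT in 17, DKO-moderate 2 in 16, DKO-moderate 1 in 7, and DKO-moderate 3 in 4.

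**Figure D5:**
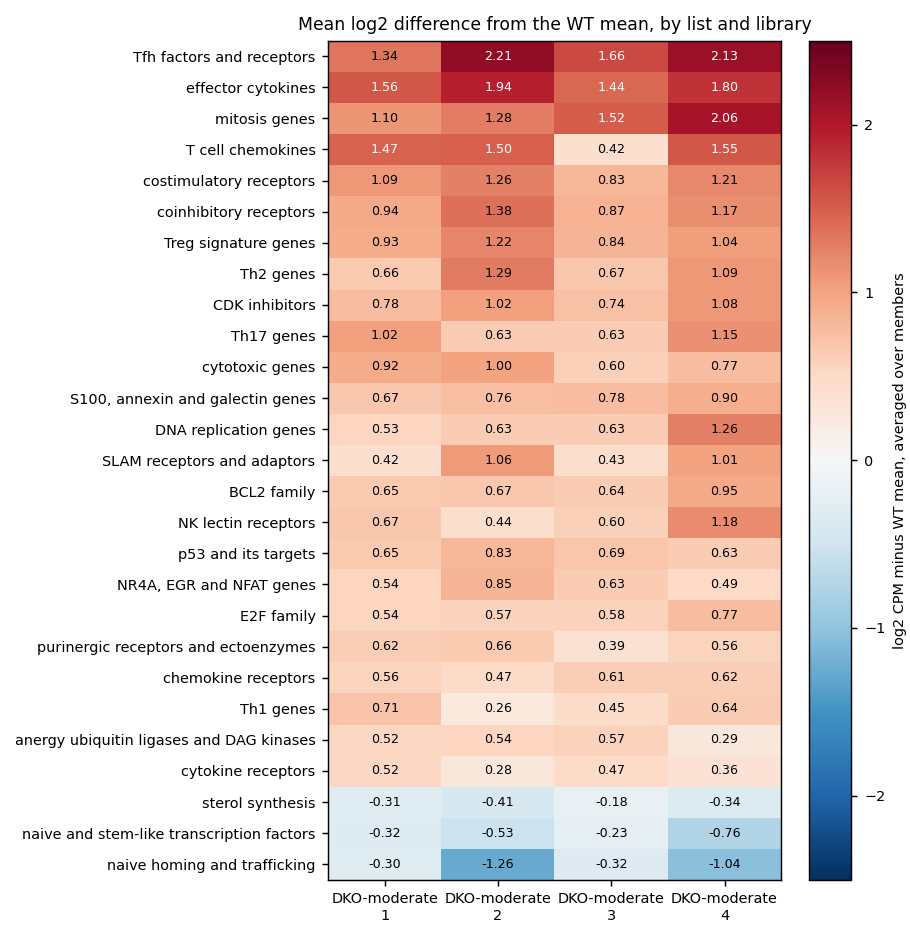
Mean log2 difference from the WT mean over the tested members of each list, for the 4 DKO-moderate libraries, with red above WT and blue below; lists with a group mean of at least 0.3 in size are shown. Naive homing genes range from -0.30 in DKO-moderate 1 to -1.26 in DKO-moderate 2, and mitosis genes from 1.10 in DKO-moderate 1 to 2.06 in DKO-moderate 4.

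Among genes averaging 20 CPM or more in DKO-moderate, the 15 with the largest SD of log2 CPM over its 4 libraries included *Ddx3y*, *Xist*, *Eif2s3y*, *Kdm5d*, and *Uty*, which are sex-linked, and *Meis2*, *A130066N16Rik*, *Ntng1*, *Efnb2*, *Pdzrn3*, *Sccpdh*, and *Vat1l*, which were low in WT. *Vat1l* was 0.287, 0.129, 0.316, and 0.738 CPM in WT and 6.78, 55, 30.9, and 74.2 CPM in DKO-moderate, and *Efnb2*, an ephrin ligand gene, was 1.06, 1.94, 1.58, and 1.8 and 3.08, 33.2, 11.4, and 47 CPM. *Pdzrn3* was low in library 4, at 12.5, 78.6, 40.5, and 6.91 CPM. The remaining 3 varied within WT too. The heat shock gene *Hspa1b* was 2.13, 3.26, 46.5, and 37.6 CPM in WT and 44.1, 5.3, 182, and 21.9 CPM in DKO-moderate, the peptide transporter gene *Slc15a2* was 23.2, 9.23, 0.144, and 3.42 and 9.7, 3.4, 18.5, and 64.3 CPM, and the pseudogene *Rpl34-ps1*, which shares sequence with its parent gene, was 78.5, 10.5, 8.68, and 10.7 and 8.82, 6.97, 84.4, and 9.11 CPM. *Hspa1b* was higher in libraries 1 and 3 than in 2 and 4, and the other 2 genes did not follow that split. Traces of other cells did: the plasma cell gene *Igj* (J chain) was 2.15, 20.7, 5.64, and 21.3 CPM and the myeloid gene *Lyz2* was 2.26, 18.7, 1.24, and 17.6 CPM in DKO-moderate 1 to 4, below the 79.9 and 102 CPM of WT 3. The part of these cells in the difference between the libraries was not tested.

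On the first principal component over 500 variable genes, which held 76.1% of the variance, the DKO-moderate libraries were at -7.19, 7.84, -4.21, and 3.29, between WT (-26.4 to -20.4) and DKO-severe (17.2 to 28.8). In the direct comparison with DKO-severe, 3217 genes differed (20.1%), 1509 higher in DKO-severe (9.41%) and 1708 lower (10.7%). All 32 mitosis genes were above their DKO-moderate level in DKO-severe, as were 17 of 32 replication genes. Of the 26 Tfh genes 8 were higher again, among them *Maf* (log2 fold change DKO-severe against DKO-moderate 0.95, adjusted p = 0.0404) and *Bcl6* (164, 81.4, 132, and 143 CPM in DKO-severe, adjusted p = 0.0336), whereas *Il21* did not pass the test (log2 fold change DKO-severe against DKO-moderate 0.95, adjusted p = 0.136). *Il17a* had a mean of 0.652 CPM in DKO-moderate and 17.3 CPM in DKO-severe (log2 fold change DKO-severe against DKO-moderate 4.73, adjusted p = 0.0277). Of the 15 naive homing genes 9 were lower in DKO-severe. Lists with few calls in moderate disease had many here: 73 of 82 ribosomal protein genes and 24 of 36 interferon-stimulated genes were lower in DKO-severe. *Csf1* (log2 fold change DKO-severe against DKO-moderate 0.31, adjusted p = 0.635), *Angptl2* (log2 fold change DKO-severe against DKO-moderate 0.26, adjusted p = 0.748), and *Rnf128* (log2 fold change DKO-severe against DKO-moderate 0.42, adjusted p = 0.289) did not pass the test between DKO-severe and DKO-moderate. Neutrophil genes, which summed to 13.4 to 36.2 CPM in DKO-moderate and 27.5 to 2312 CPM in DKO-severe, differed between these groups too, and their part in this comparison was not tested.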

How the data were processed

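RNA was sequenced from CD4+ YFP(FOXP3)- T cells in 3 groups of 4 mice (WT, DKO-moderate, and DKO-severe), 1 library per mouse. The authors prepared directional libraries, aligned paired reads to mm10 with STAR 2.7.11, kept unique alignments, and counted reads per gene with HTSeq in reverse-stranded mode. The deposited values are these raw counts. The annotation is not given in the sources used here. Rows of unassigned reads, 18.5% to 23.7% of the records of a library, were removed.

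Genes with at least 10 reads summed over a condition in at least 1 condition were tested (16035 of 26608). edgeR 4.0.16 (R 4.3.3) fitted all 12 libraries with TMM scaling and the quasi-likelihood F test, and p-values were adjusted by Benjamini-Hochberg across the tested genes, with 0.05 as the threshold. SE is the absolute log2 fold change divided by the square root of F. The spread between libraries, on log2 CPM with a prior count of 2, was compared by an exact permutation test. On simulated counts (13482 genes, 200 changed) edgeR recovered 97.1% of 4-fold and 76.5% of 2-fold changes, and 4.4% of its calls were false. False calls by DESeq2 were 9.6%. The simulation gave every gene the same dispersion, set all changes at 2- or 4-fold, and held no extra differences between libraries. These rates therefore do not measure the errors among the uneven libraries compared here, where 2734 genes changed.

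Genes were named as targeted genes, genes the study names, the 15 largest rises and falls without overlap and at 5 CPM or more, list members, and the 15 most variable genes in DKO-moderate at 20 CPM or more; genes of other cell types and members of 5 symbol families were added after their values were seen. The comparison and all gene lists were chosen with earlier results of these data known. Alternatives were DESeq2 1.42.0, voom (limma 3.58.1), other scalings, filters, thresholds, covariates, a replicate block, and leaving out each library. Replicate numbers were not treated as pairs. Same-numbered deviations correlated at -0.049 to 0.132, and different-numbered ones at -0.332 to 0.256. The labels do not say whether same-numbered mice were handled together, and so few libraries per group cannot show it. No pair of libraries of these 2 groups agreed within sampling noise. A few list members are not reported here.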

Additional observations from a re-analysis of the deposited data

Results flagged for a closer look

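In 29 of 352 groups of 4 libraries, 17 WT and 12 DKO-moderate, 1 library lay far from the others of its group by Dixon's test, and chance alone flags about 1 in 20.

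Among WT libraries, WT 2 had 0 CPM of *Ddx3y*, *Eif2s3y*, and *Kdm5d* and 626.6 CPM of *Xist*. WT 3 was high for *Igj* (79.9 CPM), *Lyz2* (102.3 CPM), *Cd79a* (49.8 CPM), *Gzma* (5.78 CPM), and *Myo10* (42.9 CPM). WT 4 was high for genes that rose in DKO-moderate, namely *Angptl2* (41.8 CPM), *Tox2* (12.3 CPM), *Pdzrn3* (2.46 CPM), *Sema4c* (1.48 CPM), *Ezh2* (52.4 CPM), and *Slc43a1* (3.23 CPM). WT 1 was high for *Rpl34-ps1* (78.5 CPM) and low for *Klrb1c* (12.1 CPM).

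Among DKO-moderate libraries, library 2 was high for *Tmprss11g* (46.3 CPM), *Epha4* (8.98 CPM), *Ctla4* (247.2 CPM), *Gzma* (25.5 CPM), and *Nt5e* (393.8 CPM) and low for the ribosomal protein genes *Rpl12* (1894 CPM) and *Rpl5* (1571.8 CPM). Library 4 was high for the cell cycle genes *Cdk1* (26.4 CPM), *Rrm2* (63.7 CPM), and *Uhrf1* (55.5 CPM) and low for *Cd4* (1225.4 CPM). Library 3 was high for *Rpl34-ps1* (84.4 CPM).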

How the results depend on the processing

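The number of genes that fell was 1405 with DESeq2 and 1337 with voom, against 760 with edgeR, which lowered the share of higher calls from 72.2% to 64.1% and 61.1%. An adjusted p under 0.01 left 1142 genes, 996 higher and 146 lower, and a minimum log2 change of 1 in either direction left 1500, with 158 lower. The libraries with Y-linked reads alone, a choice made after seeing the data, gave 386 genes, 366 higher and 20 lower, with fewer samples. Leaving out 1 library gave 1616 to 2920 changed genes, 1316 to 1994 higher, and 300 to 935 lower. Without any DKO-severe library, 15263 genes were tested and 2595 changed, 1824 higher and 771 lower. These included 84.9% of the genes reported as changed. The replicate block, which groups libraries of the same number, gave 2201 genes, 1676 higher and 525 lower. The spread ratio was 0.958 over the 500 most variable genes, 1.19 at 5 CPM or more (exact permutation p = 0.0857), 1.4 with the DESeq2 variance stabilizing transformation (exact permutation p = 0.0571), and 0.918 to 1.27 with 1 library left out. The cause was not tested.

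Of 155 called named genes, 49 kept their call under every alternative, and 8 named genes changed sign under at least 1. *Tet2* was 0.10 in Y-linked libraries, 0.03 by library size, 0.04 by voom, and -0.13 to 0.09 with 1 library left out. *Ddx3y* was 0.31 in Y-linked libraries, 2.72 by voom, 0.09 with a Y-linked term, and -1.07 to 0.15 with 1 left out. *Xist* ranged from -0.02 to 12.30 with 1 left out. By voom, *Eif2s3y* was 2.27, *Kdm5d* 2.44, and *Uty* 2.54, and in Y-linked libraries *Kdm5d* was 0.01 and *Uty* 0.47. *Uty* was also 0.28 with a Y-linked term, 0.02 with neutrophil and B cell terms, and -0.71 to 0.31 with 1 left out. *Rpl34-ps1* was -0.00 with 10 reads in every library, -0.71 with the replicate block, and -1.70 to 1.46 with 1 left out. *Ifng* ranged from -0.23 to 0.17 with 1 left out.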
